A study of Mus musculus with 6 samples.

Results

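TRIM proteins are a family of ubiquitin ligases, and their genes were followed in RNA-seq libraries of the MOC2 line, which derives from a mouse squamous cell carcinoma of the mouth. Members were taken as every gene whose symbol is Trim followed by digits and at most 1 letter, which gave 68 of the 25526 genes in the deposited tables. The groups were parental MOC2 cells with wild-type p62 and MOC2 cells in which p62, the autophagy receptor encoded by Sqstm1, was knocked out with CRISPR-Cas9, with 3 libraries each. Neither group received a treatment, and both grew in serum-containing medium. It is not stated if the knockout cells are 1 clone, several or a pool, so p-values reflect only how far these libraries spread. The members were divided into 17 that are known as interferon-induced in mouse or human cells and 51 others. This division was made with earlier results of these data known, so the contrast between the classes is descriptive.

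TRIM proteins share an N-terminal tripartite motif, made of a RING finger that carries the ligase activity, B-box zinc fingers and a coiled coil, and differ in the C-terminal domain that binds the substrate. Many members act in innate immunity, where they attach ubiquitin to nucleic acid sensors, adaptors and viral proteins. Part of the family is itself transcribed in response to interferon, and some members bind p62 or are turned over with it by autophagy.

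Libraries held 32821860 to 41763980 exon reads, and levels are given as CPM, reads scaled to library size after TMM normalization, unless TPM, which is also per transcript length, is named. Sqstm1 stood at 1567, 1783 and 2103 CPM in parental replicates 1 to 3 and at 117, 589 and 125 CPM in knockout replicates 1 to 3 (log2 fold change, knockout over parental, -2.71, edgeR adjusted p = 0.048). Knockout replicate 2 thus kept the most Sqstm1 RNA. Across all tested genes its log2 CPM correlated less with knockout replicates 1 and 3 (0.951 and 0.951, Pearson's r across genes, which are not independent) than with any parental library. With parental replicates 1 to 3 the correlations were 0.972, 0.963 and 0.953. Counts of called members over the whole family and over both classes are therefore given with and without that library. Of the 8 epithelial markers, Krt8, Krt18, Epcam and Cdh1 were abundant, Krt17 and Krt14 averaged 78.4 and 15.3 CPM in parental cells, and Krt5 and Trp63 were near 0. Krt8 rose by a log2 fold change of 1.34 (edgeR adjusted p = 0.0471). Of 10 leukocyte markers 8 did not pass the filter on low counts, Cd3e and Tyrobp were at 0 in every library, and Ptprc averaged 0.0249 CPM in parental and 0.155 CPM in knockout cells. The summed level of the list was 20.7 to 23.5 CPM in parental and 5.39 to 7.30 CPM in knockout libraries, most of it Cd68, which fell by 2.50 on the log2 scale (edgeR adjusted p = 0.00654). The other leukocyte marker tested went the other way, at a log2 fold change of 0.47, and was not called. The 6 fibroblast markers summed to 14.0 to 16.7 CPM and 4.31 to 5.14 CPM, with Lum at 0 and Pdgfra lower by a log2 fold change of -1.72 (edgeR adjusted p = 0.00934). These sums moved in the same direction as the interferon-induced members, and their part in the results was not tested. In bulk RNA, fewer cells that express a gene and less RNA per cell cannot be told apart.

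With all 6 libraries, the TRIM genes that edgeR called lower in p62 knockout cells were interferon-induced members. Of the 12 interferon-induced members that passed the filter, 6 fell (Trim30a, Trim30d, Trim34a, Trim12c, Trim12a and Trim25), and of the 33 other members tested 0 fell and 1 rose, Trim65. Over all 12775 genes tested, 5.6% were called lower and 3.48% higher (9.08% in either direction) at a Benjamini-Hochberg adjusted p below 0.05 in edgeR's quasi-likelihood test. The median log2 fold change, knockout over parental, was -1.05 for the 12 interferon-induced members, -0.04 for the other 33 and 0.02 for all genes tested. At an unadjusted p below 0.05 the other members had 3 lower and 7 higher, and the interferon-induced members 9 lower and 0 higher, where 15.8% of all genes were lower and 16.6% higher. DESeq2 called 8 interferon-induced members lower and 0 higher, and 1 other member lower and 4 higher, where 11% of all genes were lower and 11.6% higher. Limma-voom gave the same counts as edgeR for both classes.

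The calls depended on single libraries. Without knockout replicate 2, edgeR called 17 members lower and 7 higher, where 23.2% of all genes were lower and 23% higher (46.2% in either direction). The 7 members called with all libraries were among these 24 with the same sign. Of the 13 interferon-induced members then tested 11 were lower and 0 higher, and of the 33 others 6 were lower and 7 higher. Without parental replicate 2, edgeR called 0 of all 12924 genes tested and thus 0 members. At an unadjusted p below 0.05 that fit had 9 members lower and 2 higher, where 9.96% of all genes were lower and 9.34% higher. Without parental replicate 1 the counts were 3 lower and 1 higher, and leaving out parental replicate 3 gave 1 lower, Trim30a, and 0 higher, as did leaving out either knockout replicate 1 or 3.

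**Figure D1:**
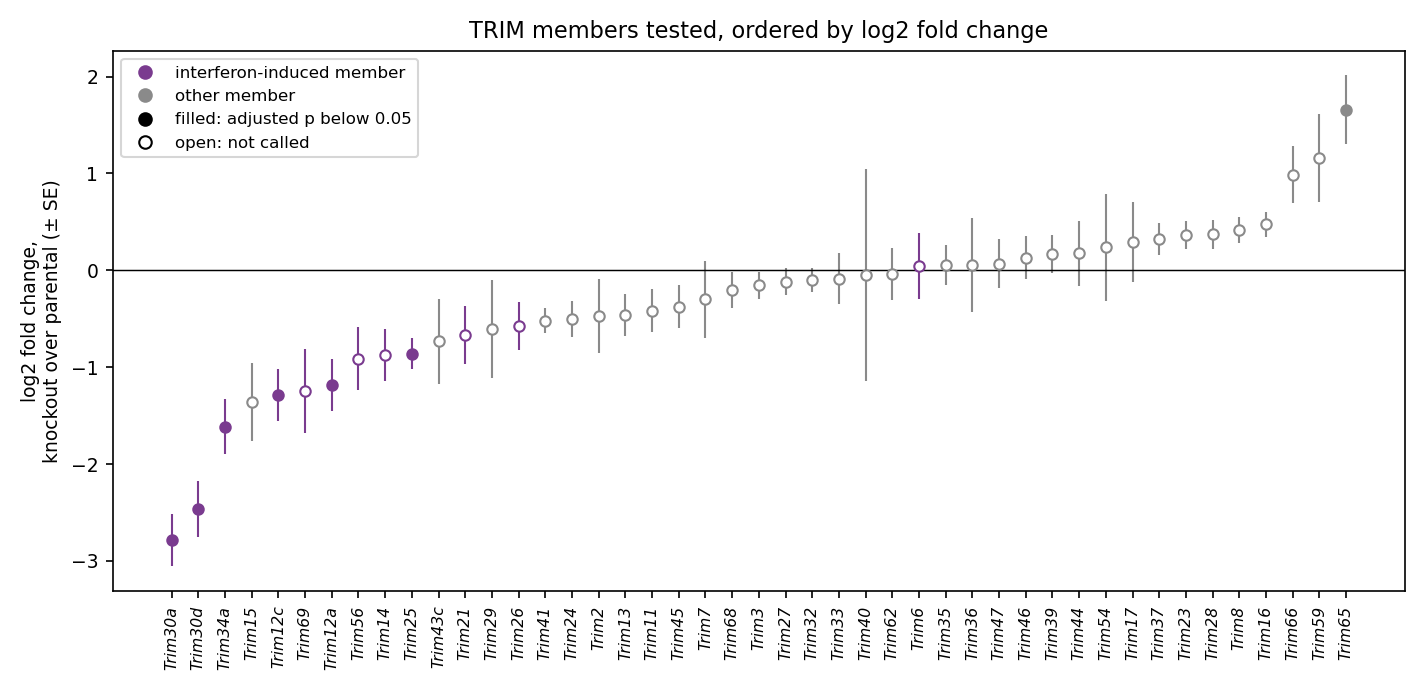
Log2 fold change (knockout over parental, y axis) with its SE for the 45 TRIM members tested, ordered along the x axis. Filled points have an edgeR adjusted p below 0.05, and the 6 filled points below 0 are all interferon-induced members, while Trim65 is the only filled point above 0.

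Of the 68 members, 63 had at least 1 read and 47 had reads in every library. The 45 members that passed the filter had reads in all 6 libraries. Trim30b, Trim42, Trim52, Trim60 and Trim61 had 0 reads, which allows up to 0.0718 to 0.0914 CPM depending on the library (3 reads, counting error only). The remaining untested members, among them the muscle-expressed Trim55 and Trim63, had at most 62 reads over the 6 libraries together.

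Trim28 was the most abundant member per transcript length. Its product, also called KAP1, is a corepressor recruited by KRAB zinc finger proteins to retrotransposons. Trim28 stood at 282, 264 and 205 TPM in parental replicates 1 to 3 and at 332, 270 and 321 TPM in knockout replicates 1 to 3. This was above every other member in every library. It made up 18.8% to 22.5% of the family's summed TPM in parental and 23.2% to 28.8% in knockout libraries. On the CPM scale its log2 fold change was 0.37 ± 0.15 (SE, with an edgeR adjusted p of 0.136, or 0.0236 without knockout replicate 2). Its silencing partners Setdb1, Atf7ip, Cbx1, Cbx3, Cbx5 and Chd4 had 0 of 6 called by edgeR with 6 libraries. At an unadjusted p below 0.05, 1 was lower and 2 were higher, where 15.8% of all genes were lower and 16.6% higher. Without knockout replicate 2, edgeR called Cbx3 and Cbx5 higher, at log2 fold changes of 0.82 and 0.77 (adjusted p = 0.00105 and 0.00351). Of all genes, 23% were called higher in that fit. In knockout replicate 2, Cbx3 and Cbx5 stood within their parental ranges.

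The next members in mean TPM were Trim8, Trim35, Trim25, Trim27 and Trim59, whose levels overlapped. Trim8, a regulator of cytokine signalling, was at 69.57 ± 8.999 TPM in parental and 88.2 ± 9.07 TPM in knockout cells (SD, n = 3). Trim35 was at 77.1 ± 16.8 and 75.7 ± 16.5 TPM, and Trim27 at 66.9 ± 2.97 and 58.7 ± 6.97 TPM. Trim25 stood second among members in parental cells, at 92.5 ± 14.0 TPM, and at 48.8 ± 3.14 TPM in knockout cells. Of these 6 most abundant members, Trim25 was the only one called by edgeR with all libraries. In all, 20 members had a mean of at least 10 TPM, 3 of them interferon-induced (Trim25, Trim26 and Trim56), and 31 were below 1 TPM. The summed TPM of the interferon-induced members was 240, 248 and 241 in parental replicates 1 to 3 and 115, 154 and 104 in knockout replicates 1 to 3. For the other members the sums were 1016, 991 and 846 TPM, and 1064, 1010 and 1011 TPM, and the groups did overlap.

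**Figure D2:**
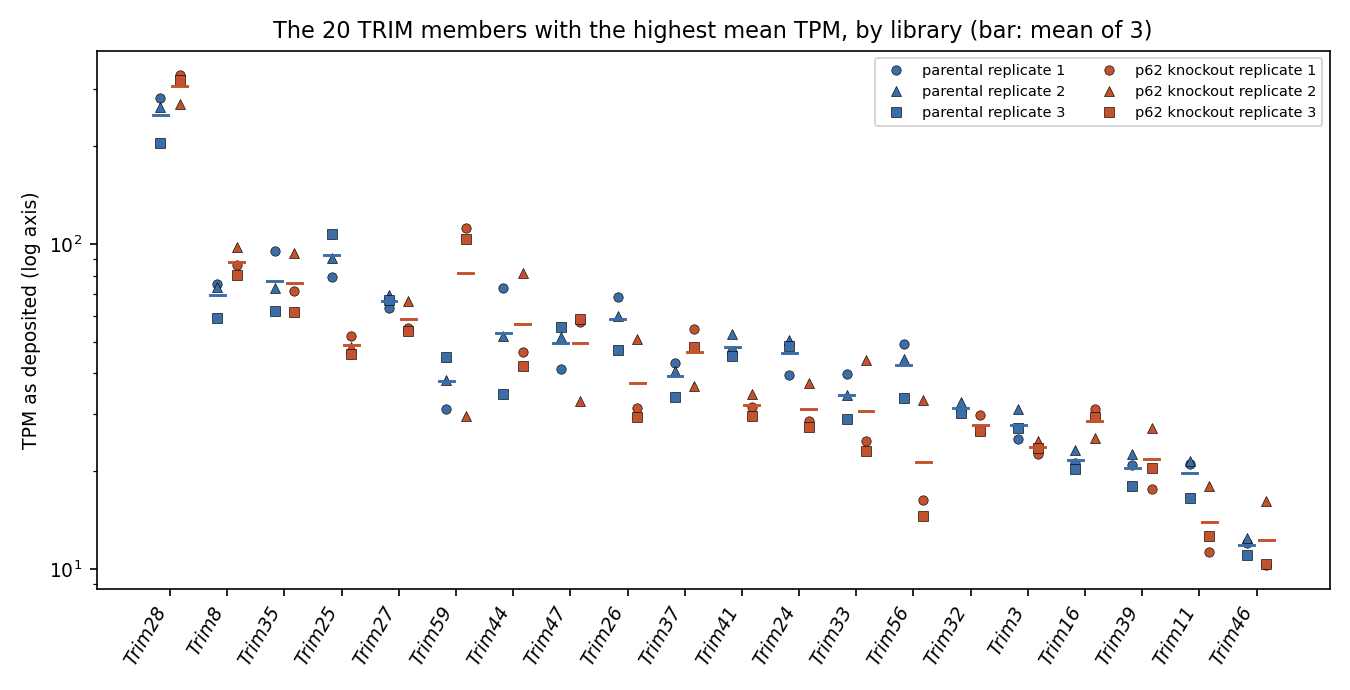
Deposited TPM (log y axis) of the 20 TRIM members with the highest mean TPM, by library, with a bar for the mean of 3. Trim28 lies above the others in all 6 libraries, and the knockout points of Trim25 lie below its parental points.

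The interferon-induced genes that fell lie mostly in a single run of TRIM genes on chromosome 7. In the RefSeq table (GRCm38.p6) this run holds, in order, Trim6, Trim34a, Trim5, Trim12a, Trim34b, Trim12c, Trim30b, Trim30c, Trim30a and Trim30d. It is the mouse counterpart of the human cluster that holds TRIM5, a factor against retroviruses. All 10 belong to the interferon-induced class of 17. Of these 10 genes 6 could be tested, among 12 tested in the class. Of the 6, 5 fell, where 5.6% of all genes were called lower. The largest falls were at one end, in Trim30a and Trim30d.

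The upstream sequences of these genes are shown because the letters of the interferon-stimulated response element, a promoter motif of many interferon-induced genes, occur in some of them. RefSeq promoter windows (GRCm38.p6) were found for 53 of the 68 members, and the 250 bases before each annotated start were searched on both strands for GAAA repeated after any 2 bases. All matches in members lay on the strand opposite the gene, where the printed strand reads TTTC, 2 bases, TTTC. Trim30a (chr7:104465194-104465443, minus strand) and Trim30d (chr7:104507850-104508099, minus strand) are near-copies, and Trim6 (chr7:104218545-104218794, plus strand) is the neighbour that was not called. Sequences run 5′ to 3′ towards the start, and capitals mark the motif.
Trim30a: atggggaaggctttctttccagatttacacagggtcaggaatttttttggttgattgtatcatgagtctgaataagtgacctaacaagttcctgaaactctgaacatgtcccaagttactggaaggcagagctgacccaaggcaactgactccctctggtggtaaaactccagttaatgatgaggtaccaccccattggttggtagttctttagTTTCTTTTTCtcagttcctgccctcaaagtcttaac
Trim30d: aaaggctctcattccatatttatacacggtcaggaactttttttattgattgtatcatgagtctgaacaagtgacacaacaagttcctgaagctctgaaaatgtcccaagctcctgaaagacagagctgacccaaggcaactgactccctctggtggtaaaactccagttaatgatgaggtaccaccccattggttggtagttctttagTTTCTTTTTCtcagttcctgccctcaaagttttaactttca
Trim6: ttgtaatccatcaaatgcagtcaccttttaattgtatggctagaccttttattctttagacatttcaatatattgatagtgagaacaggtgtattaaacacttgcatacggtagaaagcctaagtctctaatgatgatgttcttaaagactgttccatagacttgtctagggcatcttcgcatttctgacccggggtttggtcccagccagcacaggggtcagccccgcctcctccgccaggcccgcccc
The upstream sequences of Trim30a and Trim30d were identical at 227 of 255 aligned positions, or 89%. The motif began 36 bases before the start in Trim30a and 41 bases in Trim30d, and it was absent from this window of Trim6 and from a second RefSeq start of Trim30a whose first transcribed bases matched no transcript used in the check. The 30 bases around the motif in the other members that held it are Trim12c (chr7:104353359-104353388, minus strand), Trim5 (chr7:104288136-104288165, minus strand) and Trim26 (chr17:36836976-36837005, plus strand), where 2 matches overlap. The first transcribed bases of the Trim5 window matched no transcript either.
Trim12c: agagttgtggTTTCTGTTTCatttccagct
Trim5: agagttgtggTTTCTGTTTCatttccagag
Trim26: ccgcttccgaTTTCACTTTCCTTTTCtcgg
Trim12c and Trim5 shared 28 of these 30 bases. The motif was thus present in 5 of 16 interferon-induced members with a window, in 0 of 37 other members and in 3.46% of all 27025 genes with a window. Of the 6 members that fell, Trim30a, Trim30d and Trim12c held it, and Trim34a, Trim12a and Trim25 did not within these bases. The first transcribed bases of the Trim12a window matched no transcript, as for Trim5. The Trim12a window also ended on letters that in Trim12c and Trim5 stand directly before the 30 bases printed above. The letters of a second interferon-response motif, GAS (TTC, 3 bases, GAA), were searched in the same windows. They occurred in 1 of 16 interferon-induced members, 4 of 37 others and 8.13% of all genes with a window. Of the 6 members that fell, 0 held the GAS letters. Bases past the annotated start were not searched. A match describes letters only and does not show binding.

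Trim30a (ENSMUSG00000030921) encodes a ligase that in mouse macrophages restrains NF-kB signalling by way of TAB2 and TAB3. It stood at 9.96, 13.2 and 16.5 CPM in parental replicates 1 to 3 and at 1.96, 2.23 and 1.54 CPM in knockout replicates 1 to 3. All 3 knockout libraries were low, knockout replicate 2 included, and the groups did not overlap. Trim30a was 6.90-fold lower, a log2 fold change of -2.79 ± 0.27 (SE; edgeR adjusted p = 0.00702). It was called in 13 of 14 other settings, and the exception was the fit without parental replicate 2, at adjusted p = 0.0566 and a log2 fold change of -2.79.

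Trim30d (ENSMUSG00000057596), the neighbouring copy, stood at 10.6, 15.6 and 14.0 CPM in parental and at 2.08, 3.26 and 1.90 CPM in knockout replicates. The lowest parental library was above the highest knockout library. Its log2 fold change was -2.47 ± 0.29 (SE, with an edgeR adjusted p of 0.00934), or 5.52-fold lower. Leaving out parental replicate 2 or 3, or knockout replicate 1 or 3, ended the call (adjusted p up to 0.0766).

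Trim34a (ENSMUSG00000056144) stood at 4.83, 6.40 and 6.53 CPM in parental and at 1.71, 2.55 and 1.51 CPM in knockout replicates, again without overlap. It was 3.06-fold lower (log2 fold change -1.62 ± 0.28, SE; edgeR adjusted p = 0.0262). Trim12c (ENSMUSG00000057143), which with TRAF6 raises interferon production in mouse cells, stood at 9.74, 11.1 and 15.1 CPM and at 4.37, 6.30 and 4.01 CPM. Trim12a (ENSMUSG00000066258), of the lineage of human TRIM5, stood at 3.10, 4.56 and 4.73 CPM and at 1.62, 2.03 and 1.78 CPM. These 2 genes were 2.45-fold and 2.27-fold lower (log2 fold change -1.29 ± 0.27 and -1.18 ± 0.27, SE; edgeR adjusted p = 0.0355 and 0.0414). Knockout replicate 2 was the highest knockout library for each of the 5 cluster genes, yet below every parental library.

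Calls for Trim34a, Trim12a and Trim12c held with RLE and upper quartile scaling, no filter, DESeq2, limma-voom and unique reads, and Trim34a and Trim12a could not be tested with a minimum of 5 CPM in 3 libraries. They were lost with any 1 library left out other than knockout replicate 2, at adjusted p values up to 0.193. Without knockout replicate 2 the log2 fold changes were -1.89, -1.29 and -1.53. Reads that belong to a single gene made up 96.5% of the exon reads of Trim30a, 93.8% of Trim30d, 93.7% of Trim12c, 96.2% of Trim12a and 76.5% of Trim34a, so the Trim34a level is the least certain of the 5. RefSeq places another gene over the span of Trim12a, Trim12c, Trim25, Trim30a and Trim30d, and although the library kit keeps strand, the strand setting of the counting is not stated.

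Trim6, first in the run and a maker of free ubiquitin chains that activate IKK-epsilon, stood apart from its neighbours. It was at 1.31, 2.04 and 1.80 CPM in parental and at 2.29, 1.23 and 1.81 CPM in knockout replicates, which overlap. Its log2 fold change of 0.04 ± 0.34 (SE; edgeR adjusted p = 0.939) was -0.0005 with upper quartile scaling. Trim5 had 9, 19 and 12 reads in parental and 8, 9 and 5 reads in knockout replicates, too few for the filter. Trim34b had 6 reads in all and Trim30c 2.

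**Figure D3:**
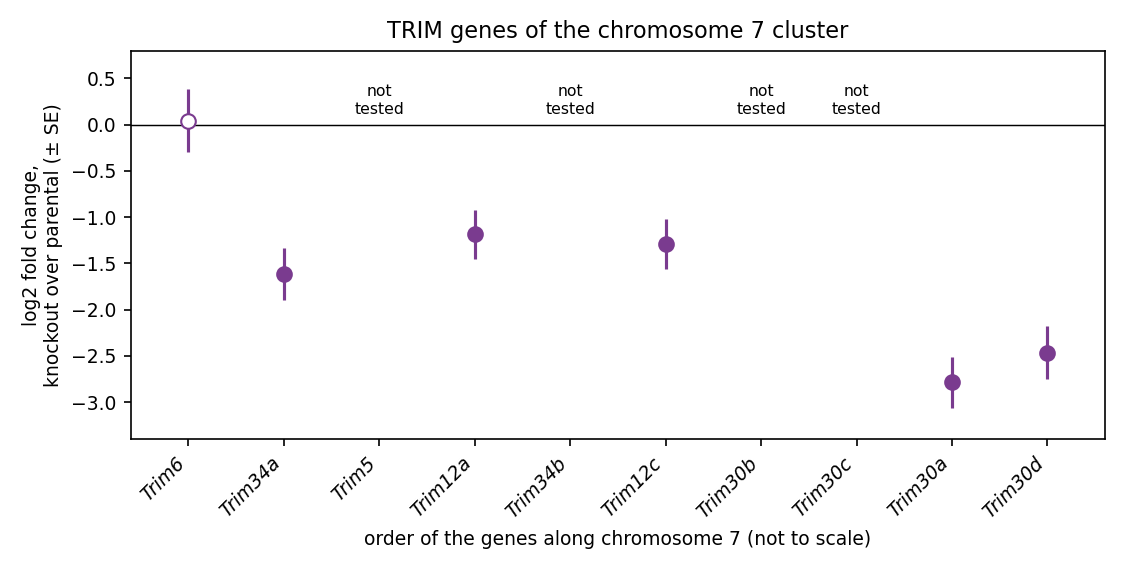
Log2 fold change (knockout over parental, y axis) with its SE for the 10 TRIM genes of the chromosome 7 run, in gene order along the x axis and not to scale. Trim6 lies at 0.04, the 5 called genes lie between -2.79 and -1.18, and 4 genes had too few reads to be tested.

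Trim25 (ENSMUSG00000000275), on chromosome 11, was the most abundant member that fell. It attaches ubiquitin to the RNA sensor RIG-I and to its signalling complex. Trim25 stood at 177, 199 and 256 CPM in parental and at 121, 117 and 111 CPM in knockout replicates. The knockout libraries lay within 10 CPM of each other and below all parental libraries. Trim25 was 1.81-fold lower, a log2 fold change of -0.86 ± 0.16 (SE; edgeR adjusted p = 0.0295). Adjusted p values reached 0.151 when parental replicate 2 or 3, or knockout replicate 1 or 3, was left out, which ended the call.

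Partners of Trim25 in this pathway were read beside it. Rigi, which encodes RIG-I, fell from 55.6 ± 19.4 to 18.6 ± 3.28 CPM (SD, n = 3; log2 fold change -1.58, edgeR adjusted p = 0.0262). The other 6 genes of the list, Mavs, Tbk1, Ikbke, Traf3, Irf3 and Zc3hav1, were not called, and 0 of them had an unadjusted p below 0.05. Their log2 fold changes lay between -0.16 and 0.53.

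A further 6 interferon-induced members were tested and not called by edgeR. Trim56, which acts in double-stranded DNA and RNA sensing, stood at 178, 157 and 129 CPM in parental and at 60.8, 129 and 56.7 CPM in knockout replicates. Knockout replicates 1 and 3 were low and knockout replicate 2 was level with the lowest parental library. Over all libraries its log2 fold change was -0.91 ± 0.33 (SE, with edgeR's adjusted p at 0.109), and -1.41 ± 0.15 without knockout replicate 2 (adjusted p = 0.00129).

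Trim26, a ligase that acts on IRF3, was also low in knockout replicates 1 and 3 alone, at 87.1, 74.4 and 63.9 CPM in parental and 41.0, 70.1 and 40.2 CPM in knockout replicates. Trim21, the cytosolic antibody receptor, stood at 8.72, 7.31 and 7.57 CPM and at 3.39, 7.13 and 4.30 CPM. For both genes knockout replicate 2 lay near or within the parental range. Their log2 fold changes were -0.57 and -0.67 (edgeR adjusted p = 0.162 and 0.172), and -0.90 and -1.04 without knockout replicate 2 (adjusted p = 0.00421 and 0.00647).

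Trim14, a mitochondrial adaptor of MAVS signalling that lacks a RING finger, stood at 4.39, 4.89 and 6.29 CPM in parental and 2.35, 3.63 and 2.49 CPM in knockout replicates. Every knockout library was below the parental ones, at a log2 fold change of -0.87 ± 0.27 (SE; edgeR adjusted p = 0.0806, DESeq2 adjusted p = 0.0289). Trim69 was below 1 CPM throughout, at 0.520, 0.605 and 0.794 CPM against 0.275, 0.368 and 0.148 CPM (edgeR adjusted p = 0.103). In 10 of the 12 tested interferon-induced members all knockout libraries were below all parental ones, against 19% of all tested genes. The gap was small for Trim56 and Trim21, where knockout replicate 2 stood at 129 and 7.13 CPM. Their lowest parental libraries stood at 129.1 and 7.31 CPM. Among the 33 others all knockout libraries were below all parental ones for 5, namely Trim41, Trim32, Trim13, Trim68 and Trim15. They were above all parental ones for 6, namely Trim28, Trim8, Trim16, Trim23, Trim65 and Trim66, against 17.2% of all tested genes.

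**Figure D4:**
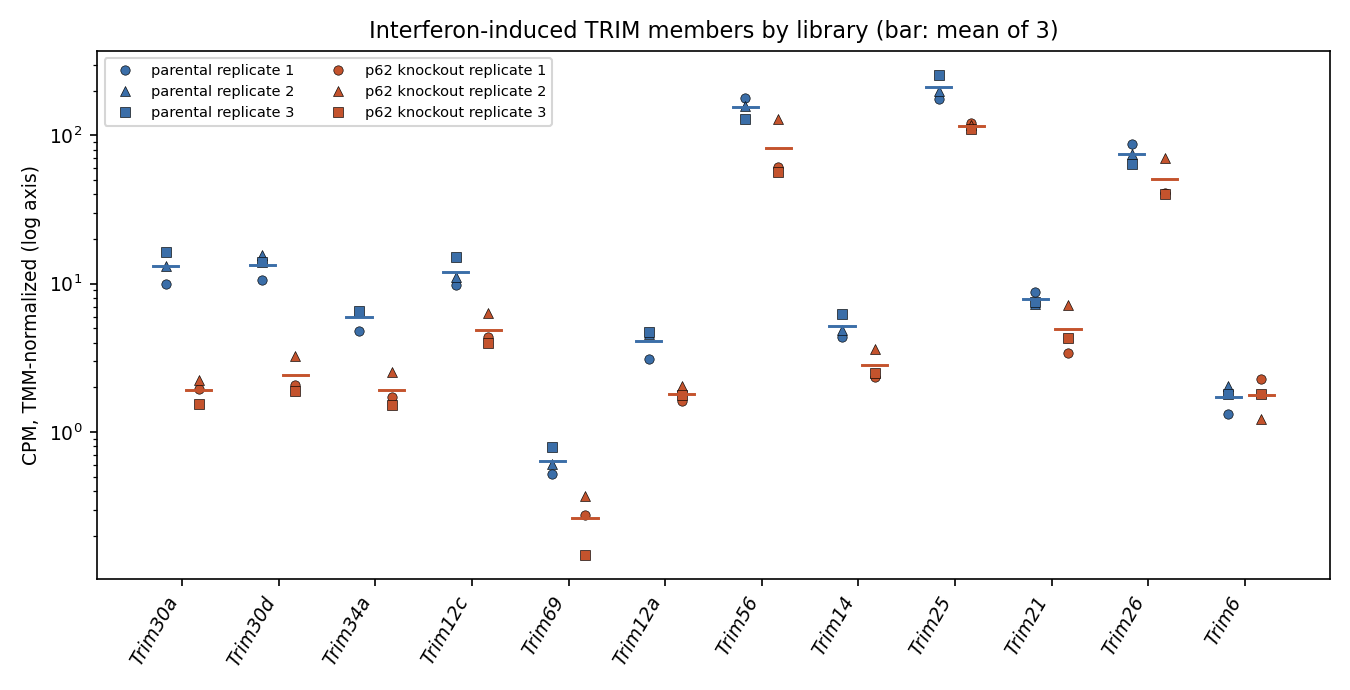
TMM-normalized CPM (log y axis) of the 12 interferon-induced members tested, by library, with a bar for the mean of 3. Knockout replicate 2 (red triangles) lies with the other knockout libraries for Trim30a, Trim12a and Trim25 and near the parental libraries for Trim56, Trim21 and Trim26.

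Trim65 (ENSMUSG00000054517) was the only member that rose by edgeR with all 6 libraries. It encodes a ligase of the RNA sensor MDA5 and lies on chromosome 11. Trim65 stood at 4.93, 2.97 and 1.86 CPM in parental and at 11.2, 8.92 and 10.8 CPM in knockout replicates. All knockout libraries were above all parental libraries. Trim65 was 3.15-fold higher, a log2 fold change of 1.66 ± 0.36 (SE; edgeR adjusted p = 0.0381). The same 4 omissions that ended the Trim25 call ended this one, at adjusted p values up to 0.176. Ifih1, which encodes MDA5, fell from 26.3 ± 2.80 to 10.2 ± 1.06 CPM (SD, n = 3; edgeR adjusted p = 0.0101).

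Members known to act with p62 were few and mostly scarce. Of Trim5, Trim13, Trim16, Trim21, Trim50 and Trim55, 3 were tested and 0 called by edgeR, with 0 lower and 1 higher at an unadjusted p below 0.05. DESeq2 called 1 higher and limma-voom 0. Without knockout replicate 2, 4 were tested, and edgeR called Trim21 lower and Trim16 higher (adjusted p = 0.00647 and 0.00646). Over all genes, that fit called 23.2% lower and 23% higher. The gene that DESeq2 called with all libraries was Trim16, whose product lacks a RING finger and joins p62 in handling damaged endomembranes and protein aggregates. It stood at 34.1, 36.5 and 35.0 CPM in parental and 51.6, 44.1 and 51.1 CPM in knockout replicates, without overlap. Its log2 fold change was 0.47 ± 0.13 (SE), with an adjusted p of 0.0634 by edgeR and 0.00979 by DESeq2. Trim13, a ligase anchored in the endoplasmic reticulum, was at 4.52 ± 0.265 CPM in parental and 3.28 ± 0.448 CPM in knockout cells (SD, n = 3; edgeR adjusted p = 0.182).

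The TIF1 subfamily, nuclear regulators with a PHD finger and bromodomain, was expressed but not called with 6 libraries. Of Trim24, Trim28, Trim33 and Trim66, edgeR called 0, with 1 lower and 2 higher at an unadjusted p below 0.05, and DESeq2 called Trim66 higher. Trim24, a coregulator of nuclear receptors, stood at 65.7, 82.5 and 86.4 CPM in parental and 49.0, 67.3 and 49.3 CPM in knockout replicates. Trim66 was low, at 1.29, 0.882 and 1.01 CPM against 2.54, 1.79 and 1.99 CPM, without overlap (edgeR adjusted p = 0.0759). Without knockout replicate 2, edgeR called Trim24 and Trim33 lower and Trim28 and Trim66 higher, in a fit that called 46.2% of all genes.

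The NHL-repeat members Trim2, Trim3 and Trim32 gave 0 of 3 called by edgeR, DESeq2 or limma-voom and 0 at an unadjusted p below 0.05. Trim32, linked to muscular dystrophy, was at 39.8 ± 0.944 and 37.1 ± 1.28 CPM (SD, n = 3; log2 fold change -0.10 ± 0.12, SE). Of the members with a COS box, which binds microtubules, Trim36, Trim46 and Trim54 were tested and 0 called by edgeR, DESeq2 or limma-voom, and their log2 fold changes lay between 0.06 and 0.24. Trim46, of the axon initial segment in neurons, had 17.64, 17.99 and 17.4 CPM in parental and 15.7, 25.8 and 16.5 CPM in knockout replicates.

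Of 13 further signalling members, 1 was higher (Trim65) and 0 lower by edgeR, with 1 lower and 3 higher at an unadjusted p below 0.05. Without knockout replicate 2, edgeR called 2 lower (Trim11 and Trim41) and 3 higher (Trim8, Trim37 and Trim65). Over all genes, that fit called 23.2% lower and 23% higher. Trim41, the lower gene at an unadjusted p below 0.05 with all libraries, stood at 63.3, 70.6 and 65.8 CPM in parental and 44.4, 51.1 and 43.8 CPM in knockout replicates. Its groups did not overlap, and its adjusted p was 0.0518 by edgeR, 0.0471 with upper quartile scaling and 0.0101 by DESeq2. The others of this list ranged in log2 fold change from -0.42 (Trim11) to 0.42 (Trim8).

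A further 17 members were called by edgeR when knockout replicate 2 was left out, and those with the largest changes follow where not given above. That fit called 24 of 46 members tested, near its share of 46.2% over all genes. Trim59, a membrane-anchored ligase, stood at 37.8, 45.6 and 58.5 CPM in parental and at 141, 39.0 and 137 CPM in knockout replicates. Its level in knockout replicate 2 was within the parental range. The edgeR adjusted p was 0.133 with 6 libraries and 0.00190 without that library (log2 fold change 1.54 ± 0.19, SE). The summed CPM of 7 proliferation genes had the same arrangement, at 302, 596 and 1005 CPM in parental and 2045, 481 and 2096 CPM in knockout replicates, and its part in the Trim59 level was not tested.

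Trim40, which is known mainly from gut epithelium, moved furthest apart among the knockout libraries. It had 172, 63 and 56 reads in parental and 11, 267 and 12 reads in knockout replicates, or 4.26, 1.59 and 1.71 CPM against 0.336, 6.54 and 0.356 CPM. Knockout replicates 1 and 3 were below and knockout replicate 2 above every parental library. Over all libraries its log2 fold change was -0.05 ± 1.09 (SE, with edgeR's adjusted p at 0.979) and -2.87 ± 0.59 without knockout replicate 2 (adjusted p = 0.0100). Trim15 was lower in each knockout library, at 0.214, 0.441 and 0.356 CPM against 1.09, 0.857 and 0.672 CPM (edgeR adjusted p = 0.0741).

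**Figure D5:**
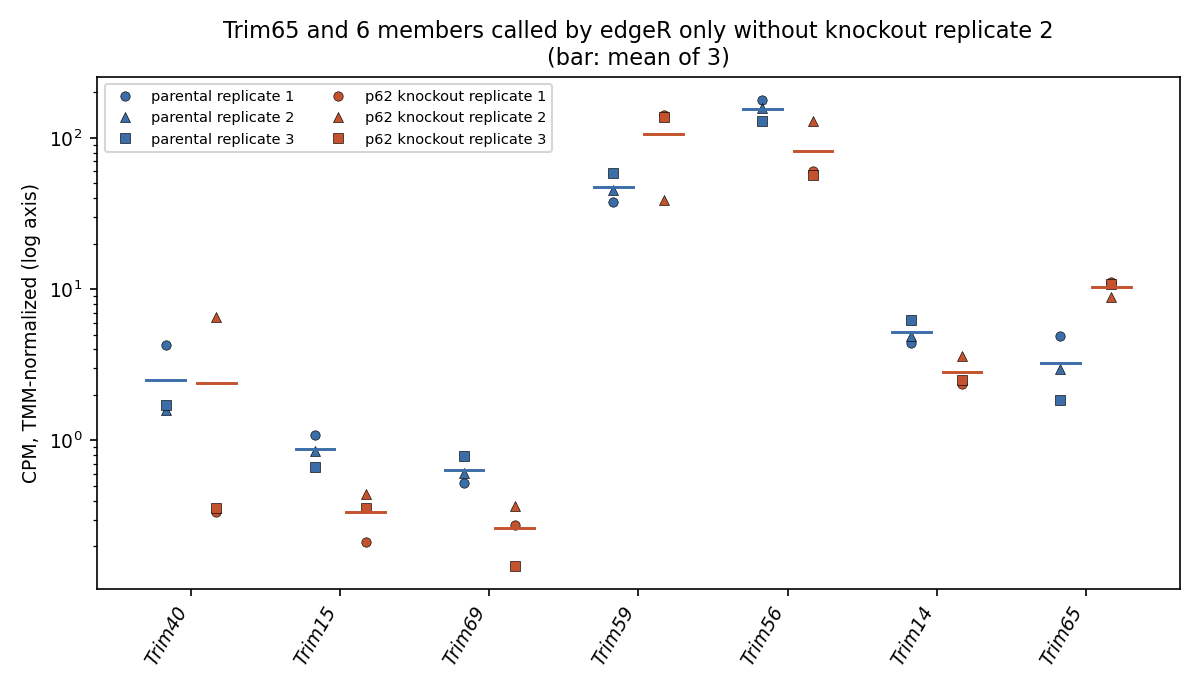
TMM-normalized CPM (log y axis) by library, with a bar for the mean of 3, of Trim65 and of the 6 members with the largest change among those edgeR called only without knockout replicate 2. Knockout replicate 2 (red triangles) lies above all other libraries for Trim40 and within the parental range for Trim59.

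Genes related to the TRIM family that carry other names were not called. Of Pml, Mid1, Mid2, Mefv, Rnf135, Fsd1, Fsd1l and Bspry, 6 were tested, and edgeR, DESeq2 and limma-voom called 0, with 0 at an unadjusted p below 0.05. Pml, the organizer of nuclear bodies and itself known as interferon-induced, stood at 39.3, 49.2 and 56.0 CPM in parental and 46.9, 34.2 and 48.1 CPM in knockout replicates. These overlap, and the log2 fold change was -0.16 (edgeR adjusted p = 0.594). Of 25 interferon-induced genes outside the family that were tested, 24 fell and 0 rose by edgeR, where 5.6% of all genes were lower and 3.48% higher. At an unadjusted p below 0.05, 0 of them were higher, and their median log2 fold change was -1.92. This list was chosen with earlier results of these data known, and it includes Rigi and Ifih1, given above. The most reduced was Ifit3, an antiviral RNA-binding protein gene, at a log2 fold change of -4.62 (edgeR adjusted p = 0.00654). Trim30a and Trim30d, at -2.79 and -2.47, were the members beyond that median.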

How the data were processed

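RNA-seq counts of 3 parental and 3 p62 knockout MOC2 libraries were used. Per the file headers, the authors' tables give total and unique exon reads per gene, which are whole-number counts, exon length and TPM. Recomputing TPM from reads and exon length gave the deposited TPM within 6e-11. Per the submitters' processing notes, reads were placed on GRCm39. The sources used here do not name the aligner, the counting tool, the annotation or its strand setting. Chromosomes, neighbours and promoter sequences come from RefSeq on GRCm38.p6, matched by symbol, and no coordinates were converted. For 53 of 67 promoter windows of members, the 50 bases after the start occurred in a transcript of the gene.

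The main test was edgeR 4.0.16 (glmQLFTest, R 4.3.3) on total exon reads with filterByExpr, TMM scaling and Benjamini-Hochberg adjustment over 12775 genes, modelling the group alone. The SE was derived from the F statistic. Results were recomputed with DESeq2 1.42.0, limma-voom (limma 3.58.1), unique reads, a replicate block, RLE or upper quartile scaling, without the filter, with a minimum of 5 CPM in 3 libraries, and with each library omitted in turn. The fits were tested on simulated data. The members and lists were chosen with earlier results of these data known. Genes were named by rule: called members, interferon-induced members with reads, the 6 most abundant, tested members of the subfamily lists, the 6 largest called only without knockout replicate 2, Sqstm1, Pml and the most changed called gene of other lists, though not every gene the rule takes is printed.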

Additional observations from a re-analysis of the deposited data

How the results depend on the processing

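Without 1 library, the number of members called lower ranged from 0 to 17 (6 with all libraries), higher from 0 to 7 (1 with all) and interferon-induced lower from 0 to 11 (6 with all). With the replicate block the counts were 2, 0 and 2. The block left Trim30a and Trim30d called, and it ended the calls of Trim34a, Trim12c, Trim12a, Trim25 and Trim65 (edgeR adjusted p = 0.0595, 0.0748, 0.09, 0.0694 and 0.0595). Same-numbered libraries deviated from their group means with correlations of -0.366, -0.105 and 0.284, so the numbers were not taken as pairs. DESeq2 called 4 members higher. The 7 called members kept their sign in all alternatives that tested them, 14 for 5 of them and 13 for Trim34a and Trim12a. Trim6 was -0.0005 with upper quartile scaling. Trim7 and Trim17, uncalled and not described in the report, crossed 0 without knockout replicate 2, to 0.0305 and -0.19. Among the uncalled members chosen for description, log2 fold changes that crossed 0 when 1 library was left out ranged from -0.17 to 0.24 for Trim6, -0.16 to 0.22 for Trim35, -2.87 to 0.58 for Trim40, -0.47 to 0.0829 for Trim33, -0.0482 to 0.62 for Trim54, -0.29 to 0.64 for Trim36, -0.15 to 0.28 for Trim46, -0.21 to 0.46 for Trim44, -0.0523 to 0.33 for Trim39, -0.0827 to 0.27 for Trim47 and -0.16 to 0.0871 for Trim62. Other scalings moved the median of all genes by less than 0.1 on the log2 scale, and the cause of lost calls was not tested. With at least 5 CPM in 3 libraries, members below that level could not be tested. For the 23 members with the fewest reads, depth limits what could be seen.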
